A study of Mus musculus with 2 samples.

Results

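Actins, tropomyosins, tropomodulins and the nonmuscle myosin II heavy chains were compared between 2 cell samples sorted from the spleen of C57BL/6 mice bearing hepatocellular carcinoma, a cancer of the liver. The 10 genes are Tmod1 and Tmod3 (tropomodulins), Tpm1, Tpm2, Tpm3 and Tpm4 (tropomyosins), Actb and Actg1 (cytoplasmic beta and gamma actin), and Myh9 and Myh10 (heavy chains of nonmuscle myosin IIA and IIB). Every probe set whose only gene symbol in the platform annotation was one of these was taken, which gave 30 of the 45037 probe sets on the array and 10 of 18193 genes. No probe set named a member beside another gene. The first sample held Ter119-positive, CD45-negative spleen cells, referred to as CD45-negative cells. Ter119 is found on the surface of red cells and of late red cell precursors, and CD45 on nearly all white cells. The second held CD45-positive cells of the same tumour-bearing mice, the control. Total RNA of each was hybridised to 1 Affymetrix 3' expression array, and the sources used here do not give the number of mice or say whether RNA was pooled.

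In most cells, actin filaments are built from beta and gamma actin, coated by tropomyosins, capped at their slow-growing end by tropomodulins and pulled by myosin II. In the red cell membrane skeleton the filaments are very short, and tropomodulin 1 and tropomyosin hold their length while spectrin links them into a net. Developing erythroblasts also use actin and myosin II to divide and to expel their nucleus. White cells use the same protein families for crawling, contact formation and phagocytosis, with partly different isoforms.

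Values are the deposited intensities of single probe sets, and a difference is the log2 intensity of the CD45-negative array minus that of the CD45-positive array. A probe set was called measured in an array if it was brighter there than 101, a background level set at the 95th percentile of 80 probe sets that name an odorant or pheromone (olfactory or vomeronasal) receptor, genes taken as silent in spleen. Of the 30 probe sets, 25 were measured in at least 1 array, and every member had at least 1 of them. A gene is represented by its probe set with the highest mean log2 intensity. Since each group had a single array, no difference could be tested against replicate error and no p-value is given. The only spread at hand was that between probe sets of the same gene, a pooled SD of 0.83 on the log2 scale over 5474 genes, which is not replicate error.

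The gates showed in the marker genes of both arrays. All 6 red cell precursor markers with a value were brighter in CD45-negative cells, with differences from 4.81 to 7.25. Of 9 white cell markers, 8 differed by 4-fold or more in the lower direction, with a summed intensity of 3232 in CD45-negative cells against 137010 in CD45-positive cells, and 3 of them were at or under the detection level in CD45-negative cells. The white cell list includes Ptprc, the CD45 gene itself, so these values check the labels and add no finding. Megakaryocyte and platelet markers were also present in the CD45-negative array. All 10 of those with a value were brighter there, 9 of them at least 4-fold, with intensities from 653.5 to 14737 in CD45-negative cells against 42.0 to 651 in CD45-positive cells, and sums of 41948 in CD45-negative cells against 2654.5 in CD45-positive cells. Of 12 smooth muscle and stromal markers, 11 were at or under the level in both arrays, among them Myh11, Cnn1, Tagln and Des. Of 8 liver and liver tumour markers, 3 were above the level in 1 array. Apoa2 and Epcam stood at 120.9 and 110.5 in CD45-negative cells against 98.4 and 98.9 in CD45-positive cells. Afp, the fetal liver protein used as a liver tumour marker, was measured by 3 probe sets, with 6.9, 12.3 and 42.4 in CD45-negative cells against 267.1, 166 and 125.5 in CD45-positive cells. In such sorted mixtures, fewer cells of a type and less RNA per cell cannot be told apart.

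The families were split by isoform. Tmod1, Tpm1, Tpm2 and Myh10 were each at least 4-fold higher in CD45-negative cells, while their paralogues Tmod3, Tpm3, Tpm4 and Myh9, together with Actg1, were each between 2.54-fold and 2.80-fold lower. Actb was nearly equal by its bright probe set. Thus 4 of 10 members (40%) were at least 4-fold higher, where 8.31% of all 11793 measured genes were, and 0 of 10 were 4-fold lower, where 16.8% of all genes were. At a 2-fold threshold, 4 members were higher (16.8% of all genes) and 5 were lower (33.3% of all genes). Over the members the median difference was -0.66, a value that falls between the 2 sets and describes neither, and over all measured genes it was -0.26. With quantile normalization the median over all genes was 0.01.

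**Figure D1:**
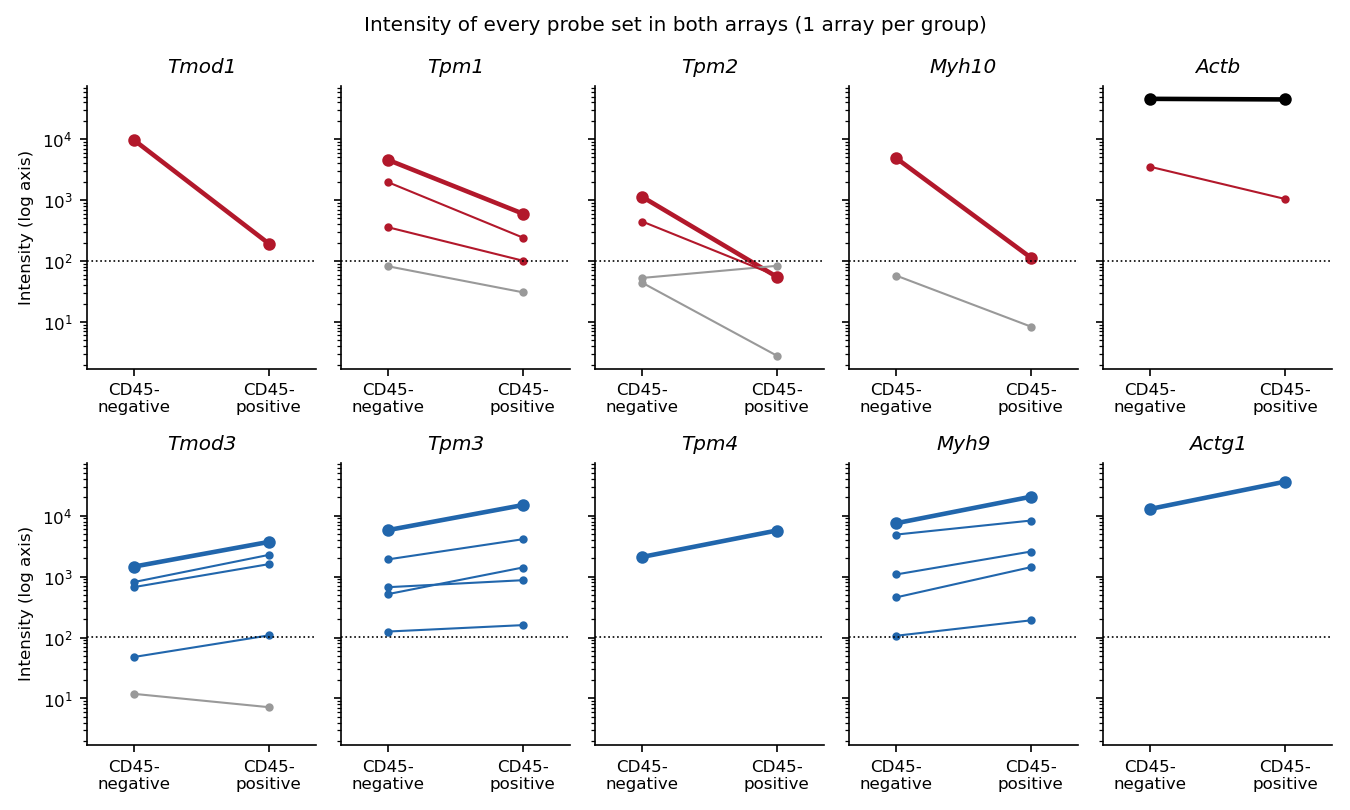
Intensity of every probe set of the 10 genes (log axis) in the CD45-negative array on the left of each panel and the CD45-positive array on the right. The thick line is the probe set that stands for the gene, red lines are brighter in CD45-negative cells, blue lines dimmer, the black line differs by less than 0.1 on the log2 scale (its sign turned under quantile normalization), grey lines were under the detection level (dotted) in both arrays. All measured probe sets of Tmod1, Tpm1, Tpm2 and Myh10 slope down to the right and all of Tmod3, Tpm3, Tpm4, Myh9 and Actg1 slope up.

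Tropomodulins cap the slow-growing, or pointed, end of actin filaments. Tmod1, the tropomodulin of the red cell membrane skeleton and of striated muscle, had an intensity of 9596 in CD45-negative cells against 193.5 in CD45-positive cells. That is a difference of 5.63, or 49.6-fold, from its only probe set. It ranked 42nd from the top among 11793 measured genes, so that 0.356% of genes had a difference as high or higher. Tmod3, the widely expressed tropomodulin, had 1459 in CD45-negative cells against 3700 in CD45-positive cells, which is 2.54-fold lower (difference -1.34).

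The other Tmod3 probe sets ran the same way where they were bright. One stood at 814 in CD45-negative cells against 2266 in CD45-positive cells, and another at 672.7 in CD45-negative cells against 1598 in CD45-positive cells. A dim one had 48.0 in CD45-negative cells against 108.3 in CD45-positive cells and was measured in CD45-positive cells only, and the fifth was under the level in both arrays. With the mean of all 5, each set to the level where it lay under it, the difference of Tmod3 was -0.83, less than 2-fold. Because both tropomodulins were read on the same arrays, the ratio of Tmod1 to Tmod3 intensity can be compared between them without regard to overall scaling. This ratio was 126-fold higher in CD45-negative cells, and over the 4 pairs of measured probe sets the log2 value ran from 5.73 to 7.11. None of the remaining tropomodulins and leiomodins, of which the neuronal Tmod2 and the muscle genes Tmod4, Lmod1, Lmod2 and Lmod3 were on the array, was measured by its brightest probe set. A single other Tmod2 probe set was measured in CD45-negative cells, at 190.7 against 15.1 in CD45-positive cells, a difference of at least 0.92.

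Tropomyosins are coiled-coil dimers that lie along the filament and set which other proteins can bind it. Each gene gives several isoforms by alternative promoters and exons, and probe sets can catch different ones. Tpm1, which encodes alpha tropomyosin and gives a short isoform found in human red cell skeletons, had 4550 in CD45-negative cells against 599 in CD45-positive cells, 7.59-fold higher (difference 2.93). Its second probe set had 1958 in CD45-negative cells against 242.6 in CD45-positive cells (difference 3.01). The next stood at 357.5 in CD45-negative cells against 101.3 in CD45-positive cells (1.82), and the fourth was under the level in both arrays. All 3 measured Tpm1 probe sets were thus brighter in CD45-negative cells, 2 of them past 4-fold. With the mean of all 4 probe sets, each set to the level where it lay under it, the difference of Tpm1 was 1.94, under the threshold.

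Tpm2, which encodes beta tropomyosin and is best known from muscle, had 1127 in CD45-negative cells and 55.1, under the level, in CD45-positive cells. Its difference is therefore a bound, at least 11.1-fold higher (3.48). The second measured probe set stood at 444.5 in CD45-negative cells against 57.2 in CD45-positive cells, at least 4.40-fold higher. The other 2 probe sets of Tpm2 reached the level in neither array, with 52.8 and 44.0 in CD45-negative cells against 83.4 and 2.8 in CD45-positive cells. With the mean of all 4, the difference was 1.40, under the threshold. Smooth muscle markers other than Acta2 were at or under the level in both arrays. Acta2 stood at 328.8 in CD45-negative cells against 290.7 in CD45-positive cells by its brightest probe set. Its other probe sets were under the level in both arrays, with 57.1 and 35.3 in CD45-negative cells against 2.4 and 10.7 in CD45-positive cells. Platelet markers were higher in CD45-negative cells. The part of smooth muscle cells or platelets in the Tpm1 and Tpm2 values was not tested.

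Tpm3 and Tpm4 lay in the opposite direction. Tpm3, whose short isoform is the other tropomyosin known from human red cells, had 5791 in CD45-negative cells against 14889 in CD45-positive cells, 2.57-fold lower (difference -1.36). All 5 of its probe sets were dimmer in CD45-negative cells, but by unequal amounts. Apart from the brightest they gave -1.10, -1.45, -0.38 and -0.35, and the last of these, at 125.4 in CD45-negative cells, lay below 127, the background level of that array taken alone. Without probe sets whose name marks shared transcripts only that dim one remained, so that Tpm3 then differed by less than 2-fold. Tpm4, a short tropomyosin of platelets and many nonmuscle cells, had 2101 in CD45-negative cells against 5696 in CD45-positive cells by its only probe set, 2.71-fold lower (difference -1.44).

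The 4 tropomyosin genes therefore formed a pair that was higher and a pair that was lower. The ratio of Tpm1 to Tpm3 intensity was 19.5-fold higher in CD45-negative cells, and over 15 pairs of probe sets its log2 value ran from 2.17 to 4.46. The ratio of Tpm1 to Tpm4 was 20.6-fold higher, with a range from 3.26 to 4.45 over 3 pairs. For Tpm2 against Tpm3 and against Tpm4 the ratios by the brightest probe sets were at least 28.7-fold and at least 30.2-fold higher. Their log2 values, also bounds, ran from 2.48 to 4.93 over 10 pairs for Tpm3 and from 3.57 to 4.92 over 2 pairs for Tpm4. These ratios compare arrays and do not say which tropomyosin was the more abundant in a cell, since probe sets of different genes have no common scale.

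**Figure D2:**
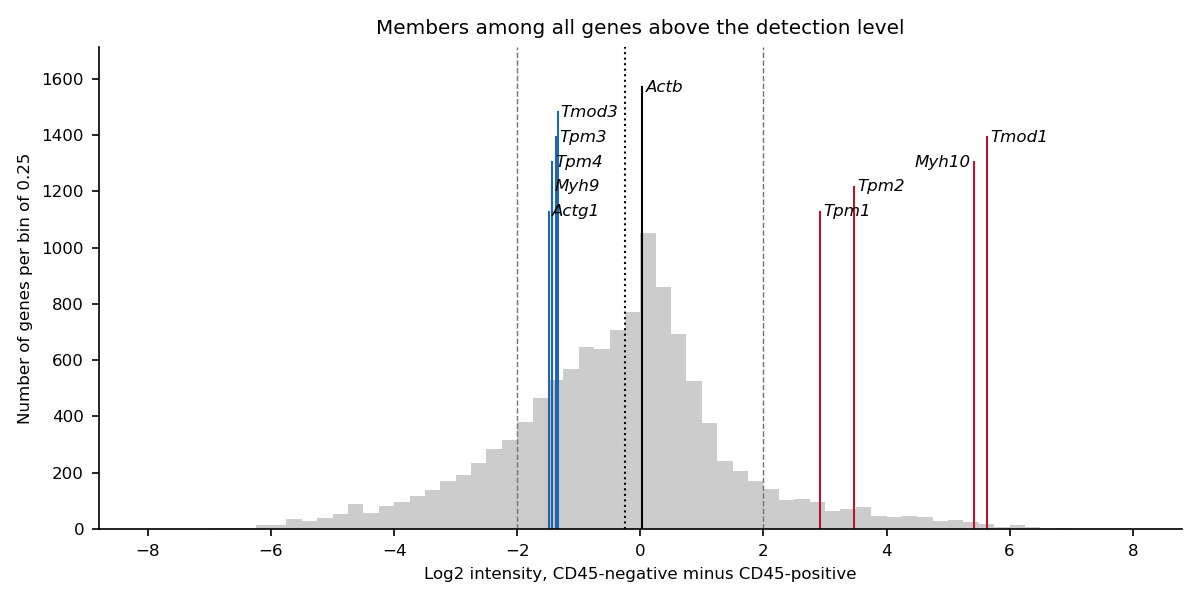
Histogram of the log2 difference (CD45-negative minus CD45-positive) of 11793 measured genes in bins of 0.25, with the 10 genes marked by vertical lines, red past 2-fold higher, blue past 2-fold lower, black between. Dashed lines mark 4-fold and the dotted line the median of all genes (-0.26). Tmod1 and Myh10 lie in the far upper tail, Tpm1 and Tpm2 beyond 4-fold, and 5 genes stand close together between -1.34 and -1.48, inside the bulk of the distribution; Actb is at 0.03, or -0.32 with quantile normalization.

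Myosin II motors pull on actin filaments in cell division and contraction. Myh10, the heavy chain of nonmuscle myosin IIB, had 4860 in CD45-negative cells against 113.5 in CD45-positive cells, 42.8-fold higher (difference 5.42). It ranked 63rd from the top, with 0.534% of all measured genes as high or higher. The CD45-positive value was only slightly brighter than the detection level, and taking the 99th percentile of the receptors instead gave a difference of at least 4.92. The second Myh10 probe set reached the level in neither array, with 57.6 in CD45-negative cells against 8.4 in CD45-positive cells, and averaging it in at the level gave a difference of 2.71.

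Myh9, the heavy chain of nonmuscle myosin IIA, is the myosin II of platelets, of most white cells and of the mature red cell. It had 7509 in CD45-negative cells against 20398 in CD45-positive cells, 2.72-fold lower (difference -1.44). All 5 Myh9 probe sets were dimmer in CD45-negative cells, with differences from -1.64 to -0.76. One of them, at 106.9 in CD45-negative cells against 191.4 in CD45-positive cells, was close to background. Without the probe set marked as shared, the brightest left gave -0.76, less than 2-fold. The ratio of Myh10 to Myh9 intensity was 116-fold higher in CD45-negative cells, and its log2 value ran from 6.18 to 7.06 over 5 pairs of probe sets. Myh14, the remaining nonmuscle heavy chain, stood at 96.0 in CD45-negative cells against 106.5 in CD45-positive cells, around the level in both.

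The cytoplasmic actins differ from each other in a few residues at their amino end, and red cell filaments are made of beta actin. Actb was among the brightest probe sets, with 45784 in CD45-negative cells against 44769 in CD45-positive cells, a difference of 0.03 that was -0.32 with quantile normalization. Its second probe set disagreed, at 3512 in CD45-negative cells against 1044 in CD45-positive cells, 3.36-fold higher. The size of the Actb difference is thus not settled by these probe sets, whose differences lie 1.72 apart, and the table holds no saturation call for the bright one. Actg1 had 12881 in CD45-negative cells against 36006 in CD45-positive cells by its only probe set, which is marked as shared between transcripts, 2.80-fold lower (difference -1.48). The Actb to Actg1 ratio was 2.86-fold higher in CD45-negative cells with the bright Actb probe set, and the other gave a log2 value of 3.23. Of the muscle actins, only Acta2 was measured in both arrays, at the nearly equal values given above. Acta1 stood at 14.6 in CD45-negative cells against 102.2 in CD45-positive cells, and Actc1 and Actg2 were under the level in both.

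The 5 lower members were close to each other and to the bulk of genes. Their differences by the brightest probe set spanned -1.48 to -1.34, and between 24.2% (Actg1) and 26.7% (Tmod3) of all measured genes had a difference as low or lower. The 4 higher members were more spread, from 2.93 to 5.63. With quantile normalization, under which the median of all genes was 0.01, the 5 lower members ran from -1.97 for Myh9 to -1.42 for Tmod3 and the 4 higher members from 3.12 for Tpm1 to 5.64 for Tmod1. Past 2-fold, 11 of the 25 measured probe sets (44%) were lower, where 31% of all 21447 measured probe sets were. Past 4-fold, 6 (24%) were higher, where 7.71% of all measured probe sets were.

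**Figure D3:**
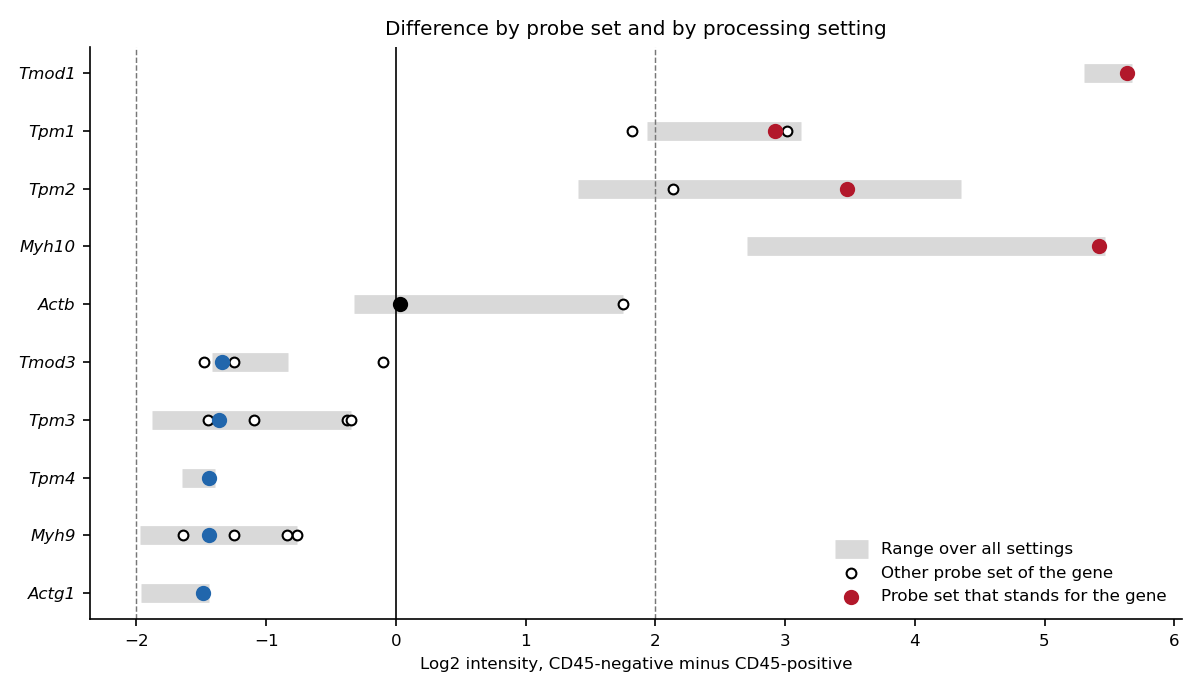
Log2 difference (CD45-negative minus CD45-positive) of each measured probe set of the 10 genes, with the probe set that stands for the gene as a filled circle (red past 2-fold higher, blue past 2-fold lower, black between) and the others open. Grey bars span the values under all processing settings, and dashed lines mark 4-fold. No gene other than Actb has points or a bar on both sides of 0, and the bars of Tpm1 and Tpm2 reach below 4-fold.

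Promoter sequence was available for 8 of the 10 genes, 9 windows in all, from RefSeq (GRCm38.p6), and the 250 bases before the annotated start are used here. The windows of the highest and the lowest member and of the paralogue pairs Myh10 and Myh9, and Tpm1 and Tpm3, are shown because these genes differed between the arrays in opposite directions. Sequences run 5' to 3' on the strand of the gene, and capitals mark matches to any of 3 motifs on either strand. The first is the CArG box, the binding motif of serum response factor, which is known for driving actin genes. The second is a GATA site, spelled AGATAA, where the first base could also be T and the last base could also be G. The third is CCNCNCCC, the core bound by Kruppel-like factors, which overlaps the GC boxes of other factors.
Tmod1, chr4:46038972-46039221, plus strand: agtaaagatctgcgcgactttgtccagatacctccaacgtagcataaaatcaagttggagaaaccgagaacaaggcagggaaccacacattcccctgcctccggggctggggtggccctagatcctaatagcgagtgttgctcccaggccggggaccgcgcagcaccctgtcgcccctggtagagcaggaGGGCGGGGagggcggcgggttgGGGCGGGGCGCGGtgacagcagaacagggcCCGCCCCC
Myh10, chr11:68691665-68691914, plus strand: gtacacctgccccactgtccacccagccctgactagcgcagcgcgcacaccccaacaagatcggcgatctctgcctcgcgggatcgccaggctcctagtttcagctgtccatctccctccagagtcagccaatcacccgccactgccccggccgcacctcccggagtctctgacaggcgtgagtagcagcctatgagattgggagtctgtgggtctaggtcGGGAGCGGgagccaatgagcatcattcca
Myh9, chr15:77842176-77842425, minus strand: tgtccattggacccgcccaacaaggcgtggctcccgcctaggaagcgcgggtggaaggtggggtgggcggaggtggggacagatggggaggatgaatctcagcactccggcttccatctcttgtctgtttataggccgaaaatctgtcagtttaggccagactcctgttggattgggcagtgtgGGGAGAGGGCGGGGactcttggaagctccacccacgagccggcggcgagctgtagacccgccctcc
Tpm1, chr9:67049214-67049463, minus strand: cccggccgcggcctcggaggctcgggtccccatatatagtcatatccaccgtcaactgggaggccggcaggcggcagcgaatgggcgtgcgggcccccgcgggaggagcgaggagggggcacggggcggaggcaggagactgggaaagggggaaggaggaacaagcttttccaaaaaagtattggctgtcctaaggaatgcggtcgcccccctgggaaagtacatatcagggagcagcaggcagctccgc
Tpm3, chr3:90072401-90072650, plus strand: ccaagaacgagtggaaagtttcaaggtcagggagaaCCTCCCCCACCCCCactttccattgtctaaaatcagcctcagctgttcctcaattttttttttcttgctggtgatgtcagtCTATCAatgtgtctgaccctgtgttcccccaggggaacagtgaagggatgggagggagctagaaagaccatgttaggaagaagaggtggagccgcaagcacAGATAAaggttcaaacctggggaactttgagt
Actg1, chr11:120348496-120348745, minus strand: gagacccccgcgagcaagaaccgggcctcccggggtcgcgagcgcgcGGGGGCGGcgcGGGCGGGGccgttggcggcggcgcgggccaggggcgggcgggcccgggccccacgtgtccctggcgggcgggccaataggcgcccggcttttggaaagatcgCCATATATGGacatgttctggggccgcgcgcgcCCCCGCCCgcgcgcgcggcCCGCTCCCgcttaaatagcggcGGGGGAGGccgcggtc

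The CArG box was found in 1 of the 9 windows, that of Actg1, as CCATATATGG from -90 to -81 of the start, and in 1.47% of all 32851 promoter windows of the same length. A GATA spelling was found in 1 of the 9 windows, the Tpm3 window shown above, from -133 to -128 and from -32 to -27. Tpm3 is a lower gene, and its other window, not shown, had no GATA spelling. None of the windows of the higher genes had such a spelling, and 26.5% of all windows did. CCNCNCCC was found in 8 of the 9 windows, in both higher and lower genes, and in 45.9% of all windows. A match describes the letters only, and its absence says only that these letters are not in this window. Tropomyosin genes have several starts, and the arrays do not show which start was used in either sample.

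The rest of the actin filament system was described by lists of genes chosen by function. Of 81 other genes measured, 10 (12.3%) passed 4-fold in the higher direction in CD45-negative cells and 29 (35.8%) in the lower, and the median difference was -1.22. The same shares over all measured genes were 8.31% and 16.8%, with a median of -0.26. In 11 of the 81, measured probe sets of the same gene had opposite signs.

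The myosin II system had 12 measured genes besides Myh9 and Myh10. Of these, 3 (25%) passed 4-fold in the higher direction, 1 (8.33%) passed it in the lower and 8 passed it in neither. Their median was 0.38, and over all measured genes the shares higher and lower were 8.31% and 16.8%. Mylk3, a myosin light chain kinase known from heart muscle, stood at 5183 in CD45-negative cells against 92.7, under the level, in CD45-positive cells, at least 51.3-fold higher. Myl9, a regulatory light chain abundant in platelets and smooth muscle, had 1440 in CD45-negative cells against 107.9 in CD45-positive cells, 13.3-fold higher. Myl12b, a regulatory light chain of nonmuscle cells, had 1176 in CD45-negative cells against 12336 in CD45-positive cells, 10.5-fold lower. The platelet markers were higher alongside Myl9, and their part in its value was not tested.

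Among genes that build new filaments, more were lower than higher, as over all measured genes. Of 23 measured nucleators and activators, 3 (13.0%) passed 4-fold in the higher direction and 8 (34.8%) in the lower, and the median was -1.49. Over all measured genes these shares were 8.31% and 16.8%. Nckap1l, the blood cell form of a subunit of the WAVE complex that activates branched actin, had 184 in CD45-negative cells against 4340 in CD45-positive cells, 23.6-fold lower. Its paralogue Nckap1 had 1056 in CD45-negative cells against 142.8 in CD45-positive cells, 7.40-fold higher. Both other higher genes encode formins, which make straight filaments. Daam1 had 2832 in CD45-negative cells against 160.5 in CD45-positive cells (17.6-fold, and 1.54 on the log2 scale by its other measured probe set). Diaph3, a formin required for division of mouse erythroblasts, had 2118 in CD45-negative cells against 140.2 in CD45-positive cells, 15.1-fold higher.

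No measured gene for monomer binding, severing or capping, and no crosslinker, was 4-fold higher, where 8.31% of all genes were. Among the 19 genes for monomer binding, severing or capping, 8 (42.1%) passed 4-fold in the lower direction and the median was -1.59. The share lower over all genes was 16.8%. Twf2, a twinfilin that binds actin monomers, had 167 in CD45-negative cells against 3875 in CD45-positive cells, 23.2-fold lower. Capg, a capping protein of macrophages, was at least 27.2-fold lower against the CD45-negative array's own level of 127, but its other measured probe set gave 0.35, so its direction is uncertain. Cap1, an actin monomer recycling protein, was 9.24-fold lower. Among 20 crosslinkers and bundlers, 11 (55%) passed 4-fold in the lower direction, where 16.8% of all genes did, and the median was -2.32. Evl, which promotes filament growth, had 127.7 in CD45-negative cells against 7045 in CD45-positive cells, the largest difference (-5.79) of its 4 measured probe sets, which ran up to -0.80 with a mean of -3.62. Coro1a, the coronin of blood cells, had 921 in CD45-negative cells against 40648 in CD45-positive cells, and its 3 measured probe sets ran from -6.04 to -3.15. Lasp1 was 20.2-fold lower by its brightest probe set, while others of its 9 measured probe sets ran up to 0.83.

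The junction where red cell filaments meet spectrin went the other way. Of 5 measured genes 4 (80%) passed 4-fold in the higher direction, where 8.31% of all genes did. The median was 5.51, or 3.46 with the mean of probe sets. Dmtn (dematin) and Add2 (beta adducin), which bundle and cap these filaments, had differences of 6.43 and 6.25, with other measured probe sets down to 3.47 and 3.06. Sptb, the red cell beta spectrin, had 9450 in CD45-negative cells against 207.8 in CD45-positive cells (difference 5.51), while its other measured probe set gave 1.41, under the threshold. Add1, another adducin, passed 4-fold narrowly, with a difference of 2.10. Its 3 measured probe sets ran from 1.39 to 2.26, and their mean of 1.92 did not reach 4-fold. The exception was Add3, the adducin of most other cells, with 925 in CD45-negative cells against 4902.5 in CD45-positive cells, 5.30-fold lower (difference -2.41). Its 4 measured probe sets ran from -2.41 to -0.67, and their mean of -1.75 did not reach 4-fold.

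**Figure D4:**
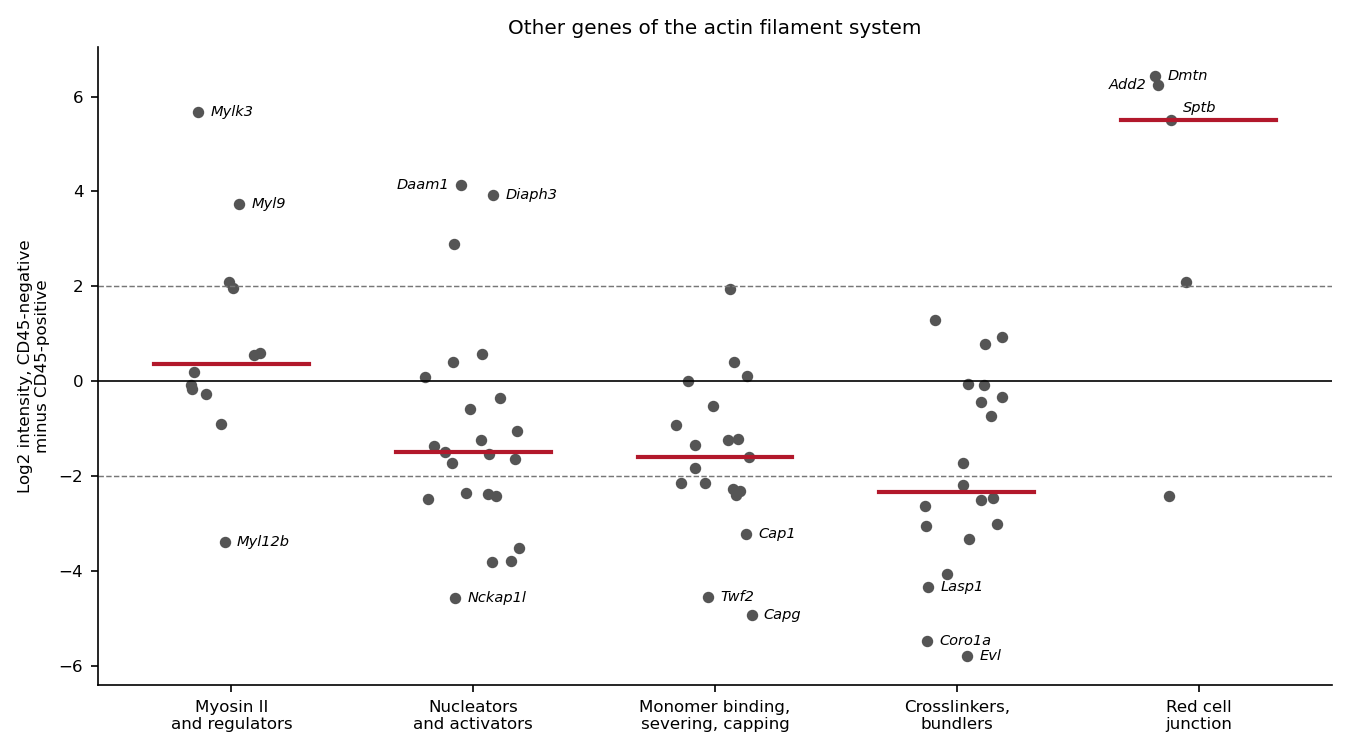
Log2 difference (CD45-negative minus CD45-positive) of each measured gene in 5 lists of the actin filament system, without the 10 genes described above. Red bars are list medians (0.38, -1.49, -1.59, -2.32 and 5.51 from left to right), dashed lines mark 4-fold, and the 3 largest differences of each list are named.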

How the data were processed

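Each probe set had 1 deposited intensity for each of the arrays, on a linear scale and with no detection or saturation call. The submitters' processing notes name GCRMA and Partek 6.6 without their roles. The authors' deposited intensities had nearly equal trimmed means (494 for CD45-negative cells and 497 for CD45-positive cells, with 2% left out at each end) but unequal distributions, so the step that made them is not settled, and GCRMA values are usually on a log2 scale. The RNA was amplified and labelled with a 3' in vitro transcription kit, per the labels' protocols.

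Probe sets were named from GEO's platform annotation (34945 with 1 symbol, 932 with several, 9160 unnamed), and symbols were checked by Entrez identifier against RefSeq GRCm38.p6, which held 34741 of the 34945 and changed 0. Log2 of the intensities was used without a pseudocount and without normalizing again, and values at or under the detection level (101; 127 for the CD45-negative array alone and 73.5 for the CD45-positive array alone) were set to it, so that such differences are bounds. The 4-fold threshold was the main one. The number of arrays, 1 per group, limits the precision.

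The members and lists were chosen with earlier results of these data known. Named genes are all members, and of each list the 3 measured genes with the largest difference and any that went 4-fold against the list. Add1, Mylk, Cfl1, Rhoa, Ppp1cb, Tmod4 and the leiomodins were named outside this rule, with their values known. Some marker genes at, under or near the detection level were named, and Ptprc because it is the CD45 gene. The genes nearest to a member in both intensities are not given, because probe sets of different genes have no common scale. Ratios between paralogues, Myh14, Actc1, Actg2 and the probe sets of Tmod2 were chosen after the values were seen. Alternatives were the mean of probe sets, unshared probe sets only, quantile normalization, median centring, 3 other treatments of the detection level, and a pseudocount of 50. The software was Python 3.11.15 with matplotlib 3.10.9, scipy 1.17.1, pandas 2.3.3 and numpy 2.4.6, and the gene-level code was tested on simulated data. Changes were simulated only in genes well above the detection level, with noise smaller than the spread between probe sets of a gene. How well changes near the level are recovered was therefore not tested.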

Additional observations from a re-analysis of the deposited data

How the results depend on the processing

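Across 9 alternatives, of which 1 was chosen after seeing the data (the mean of measured probe sets only), 9 of the 10 genes kept their direction under every alternative that gave a value. The exception was Actb, which had -0.32 with quantile normalization and 1.75 with unshared probe sets. With the mean of all probe sets, 2 of the 10 genes in place of 4 were at least 4-fold higher, Tmod1 at 5.63 and Myh10 at 2.71. Probe sets under the level enter the mean at the level, for all genes on the array and not for the members alone. With the mean of measured probe sets, the 4 genes had differences of 5.63, 5.42, 2.81 (Tpm2) and 2.59 (Tpm1). Without probe sets marked as shared, Tpm2 had no value above the level, Actg1 had no probe set left, Tpm3 stood at -0.35, 2 genes in place of 5 were past 2-fold lower, and the median of the members was 0.70. The mean of all probe sets left 3 past 2-fold lower. Counts of the other actin filament genes past 4-fold ran from 8 to 12 higher and from 21 to 33 lower. The number of genes that counted as measured changed with the setting as well. Shares over all genes were computed for the main setting only. The counts under the alternatives, of members and of other genes, therefore have no background share beside them and show only how far the counts move. No paired analysis was possible because each group held 1 array, and for the same reason no replicate could be left out. The causes of these shifts were not tested beyond what each alternative's construction shows.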

Other observations

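Paralogue splits like those of the tropomodulins, tropomyosins and myosins were also seen among genes singled out after their values were seen. Add2 and Add3 had differences of 6.25 and -2.41 (-1.75 for Add3 by the mean of its measured probe sets), and Nckap1 and Nckap1l had 2.89 and -4.56. In contrast, Cfl1, the main cofilin that severs filaments, had 31119 in CD45-negative cells against 31016 in CD45-positive cells. Rhoa, which switches on myosin contraction, had 9392 in CD45-negative cells against 8154 in CD45-positive cells, and its 3 probe sets ran from -0.24 to 0.46. Ppp1cb, the catalytic subunit of the phosphatase that acts on myosin light chains, had 22563.5 in CD45-negative cells against 5749 in CD45-positive cells, and its 4 probe sets ran from 1.89 to 2.24.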
